A study of Rattus norvegicus with 12 samples.

Results

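Gata4, Gata6, Cdx1, Cdx2 and Hnf4a, transcription factors that set intestinal region and enterocyte fate, were followed in rat jejunal mucosa, scraped from the gut wall, at high Fe and at low Fe. They are 5 of the 13810 genes that a probe set names alone. They were taken as every probe set whose only gene symbol in the platform annotation is one of these 5 names, which gave 9 of 31142 non-control probe sets on the 2 Affymetrix array types for rat, 230A and 230B. All 9 were bright enough to be tested, 8 on 230A and 1, for Hnf4a, on 230B. Each group had 3 samples, and arrays of both types carry the same group names and numbers, which were taken as the same 6 samples on 12 arrays. The sample titles give 12 weeks for every sample and separate the groups by iron alone, and iron deficiency and anemia are named as keywords. No strain, sex, diet composition or number of pooled animals is given in the sources used here, and nothing says that each sample is a separate animal. The p-values therefore reflect only how far these 6 samples scatter, which may be technical scatter.

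GATA factors bind DNA through zinc fingers. In the small intestine GATA4 is the proximal factor: it keeps jejunal enterocytes from taking on the ileal programme of bile acid uptake, while GATA6 is made along the whole intestine, in crypts and villi. CDX1 and CDX2 are homeodomain proteins, and CDX2 is the master regulator that separates intestine from stomach. HNF4A is a nuclear receptor of enterocytes and hepatocytes that acts with the GATA and CDX factors on genes of fat absorption and the brush border. It is transcribed from alternative promoters, and the isoforms from both are made in the intestine.

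The promoters below show where the factors' short motifs occur in the regions that drive them and a shared target. Hnf4a is shown because its 3 probe sets disagree and RefSeq gives it more than one start, Cdx2 because it was the member whose groups did not overlap, and Fabp2, the intestinal fatty acid-binding protein, because its promoter holds all 3 motifs. The sequences are RefSeq's (GRCr8), 300 bases from 250 before to 50 after the start, 5′ to 3′, in lower case. Capitals mark GATAA (GATA factors), TTTATG or TTTATT (CDX factors) and CAAAGTNCA or CAAAGGNCA (HNF4A), each on either strand, where GATAA and the CDX motifs can share bases.
Hnf4a upstream start, chr3:172605970-172606269, plus strand: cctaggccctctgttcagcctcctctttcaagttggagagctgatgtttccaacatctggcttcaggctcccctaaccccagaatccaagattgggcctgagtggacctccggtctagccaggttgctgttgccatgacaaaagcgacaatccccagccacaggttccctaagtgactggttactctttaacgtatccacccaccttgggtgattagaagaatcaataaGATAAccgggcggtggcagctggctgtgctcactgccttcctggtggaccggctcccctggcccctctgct
Hnf4a downstream start, chr3:172641586-172641885, plus strand: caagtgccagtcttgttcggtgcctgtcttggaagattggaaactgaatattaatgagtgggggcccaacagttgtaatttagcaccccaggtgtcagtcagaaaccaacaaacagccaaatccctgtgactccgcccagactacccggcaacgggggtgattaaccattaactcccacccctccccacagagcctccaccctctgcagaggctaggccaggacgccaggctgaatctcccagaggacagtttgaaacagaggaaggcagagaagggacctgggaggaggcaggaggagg
Cdx2, chr12:12762654-12762953, plus strand: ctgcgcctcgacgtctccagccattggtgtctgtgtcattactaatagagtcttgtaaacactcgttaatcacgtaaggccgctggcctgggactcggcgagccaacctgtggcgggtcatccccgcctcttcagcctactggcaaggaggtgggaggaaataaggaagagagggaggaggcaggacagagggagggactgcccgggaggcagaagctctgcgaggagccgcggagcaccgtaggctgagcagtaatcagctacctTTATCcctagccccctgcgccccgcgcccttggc
Fabp2, chr2:213724379-213724678, plus strand: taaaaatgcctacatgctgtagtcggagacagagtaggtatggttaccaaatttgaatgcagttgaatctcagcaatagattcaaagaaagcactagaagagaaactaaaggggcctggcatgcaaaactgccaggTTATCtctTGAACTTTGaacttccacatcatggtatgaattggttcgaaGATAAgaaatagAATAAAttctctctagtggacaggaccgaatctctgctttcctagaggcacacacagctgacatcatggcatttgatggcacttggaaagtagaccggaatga
The upstream Hnf4a start and the Cdx2 start each hold 1 GATA match, the downstream Hnf4a start holds none of the motifs, and Fabp2 holds 2 GATA matches, 1 CDX match and 1 HNF4A match. Over 33469 promoters of this length, 26.5% hold the GATA motif, 29.7% a CDX motif and 3.02% an HNF4A motif, so the single matches at Hnf4a and Cdx2 are common ones. A promoter was matched for 4 of the 5 genes, and a match is not a measured binding site. The files do not say which start a probe set reads.

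The arrays of a type had been scaled to one trimmed mean before deposit, and their medians were close to one another (154 to 176 for 230A arrays). A technical measure set 3 samples apart. On 230A the 5′/3′ signal ratio of GAPDH, read from control probe sets and used to judge how intact the RNA was, lay between 0.794 and 0.811 in 3 samples: replicate 1 of high Fe and replicates 2 and 3 of low Fe. In the remaining samples, replicates 2 and 3 of high Fe and replicate 1 of low Fe, it lay between 0.876 and 0.922. On 230B the low Fe replicate 3 array had a ratio of 0.873, with 0.831 in high Fe replicate 1, 0.821 in low Fe replicate 2 and 0.877 to 0.939 elsewhere. Low Fe replicate 3 had a beta-actin ratio of 0.0539, while the remaining 230A arrays had 0.591 to 0.836. High Fe replicate 2 stood apart in its hybridization controls, with a mean log2 signal of 10.26 against 9.23 to 9.52. Several values below moved with the GAPDH ratio, and the difference between the ratio sets is given for each of the factor probe sets.

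None of the 9 probe sets passed adjusted p 0.05 in limma, where 0.0945% of the 9519 tested probe sets on 230A and 0% of the 9163 on 230B passed. At an unadjusted p under 0.05 there were also 0 of the 9, against 6.72% of all tested on 230A and 10.3% on 230B. Groups did not overlap in 1 of the 9, against 11.7% of all tested on 230A and 17.5% on 230B. Taken as low Fe minus high Fe on the log2(signal + 16) scale, 4 differences lay above 0 and 5 below, with a median of -0.36 for the 8 on 230A against -0.015 over all tested there. That median is over probe sets, not genes. It includes 3 dimmer Gata4 and Hnf4a probe sets that moved with the GAPDH ratio (-0.80, -0.75 and -0.53). It also includes Gata6 1375613_at (-0.55), which passed the filter only through the high Fe samples. The brightest probe sets of Gata4, Cdx2 and Hnf4a had folds of 1.01 to 1.16. Dimmer probe sets of Gata4 and Hnf4a differed 3.51-fold to 4.30-fold between sets of 3 samples that cut across the iron groups.

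Gata4 was measured by 2 probe sets, one level and one not. The bright probe set, 1387894_at, had linear signals of 2564, 1961 and 2675 in high Fe replicates 1 to 3 and 2325, 2302 and 2597 in low Fe replicates 1 to 3. The groups overlapped, and the lowest value was that of high Fe replicate 2. Their means were 2400 ± 384 and 2408 ± 164 (SD, n = 3 each), a fold of 1.01 with a 95% confidence interval of 0.802 to 1.27 (log2 difference 0.016 ± 0.15 SE, limma adjusted p = 0.986). The dim probe set, 1370293_at, which the platform ties to the same sequence entry, had signals of 112, 384 and 454.5 in high Fe and 395.5, 103 and 77.3 in low Fe. Here 3 samples were high and 3 low, and each iron group held samples of both kinds.

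Hnf4a showed the same contrast between its probe sets. On 230B, probe set 1392969_at had signals of 19932, 18874 and 17381 in high Fe and 17479, 19347 and 20550.0 in low Fe, among the brightest of its array (99.8th percentile of mean signal). The groups overlapped, with a fold of 1.02 (95% interval 0.830 to 1.25; log2 difference 0.029 ± 0.13, limma adjusted p = 0.947). Its spread over the 6 arrays was smaller than that of nearly all tested probe sets, at the 1.23rd percentile of the SD of log2 values. On 230A, probe set 1369289_at had signals of 162, 794 and 864 in high Fe and 711, 150 and 204 in low Fe. Probe set 1382496_at gave 113, 479 and 483 in high Fe and 473, 122 and 140.5 in low Fe. The same 3 samples were high in both, and they were the 3 that were high for the dim Gata4 probe set.

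**Figure D1:**
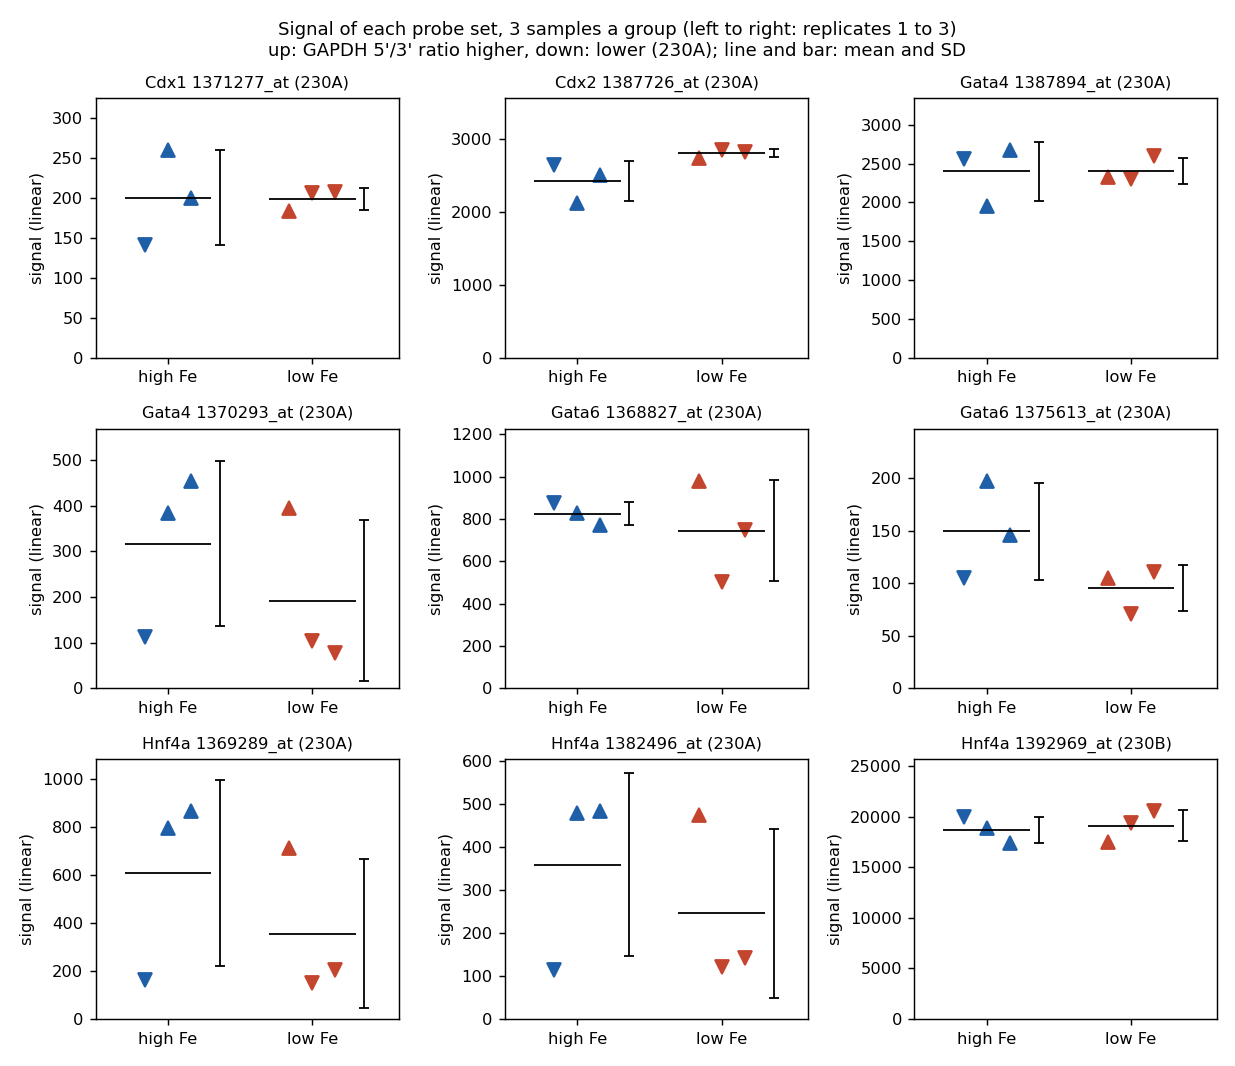
Linear signal of each of the 9 probe sets in the 3 high Fe (blue) and 3 low Fe (red) samples, replicates 1 to 3 from left to right, with the mean (line) and SD (bar); triangles pointing up are samples with the higher GAPDH 5′/3′ ratio on 230A and those pointing down the lower. The 2 Hnf4a probe sets on 230A and Gata4 1370293_at fall into a high and a low set that cut across the iron groups, whereas Gata4 1387894_at and Hnf4a 1392969_at stay level.

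The 3 high samples were high Fe replicates 2 and 3 and low Fe replicate 1, the same 3 as those with the higher GAPDH ratio. Between these and the other samples, with no test, mean signals were 790 ± 76.6 against 172 ± 28.4 for Hnf4a 1369289_at (SD, n = 3 each), 478 ± 5.05 against 125 ± 14.0 for Hnf4a 1382496_at and 411 ± 37.8 against 97.5 ± 18.0 for Gata4 1370293_at. On the log2(signal + 16) scale these are folds of 4.30, 3.51 and 3.79. The lower mean of Gata4 1370293_at, 97.5, lies under the signal of 109 below which probe sets were left out, so this probe set passed that filter only through its 3 high samples. The other 5 probe sets on 230A differed much less, with log2 differences between the sets of -0.18 for Cdx2, -0.11 for Gata4 1387894_at, 0.20 for Cdx1, 0.30 for Gata6 1368827_at and 0.55 for Gata6 1375613_at, all with overlap. Hnf4a 1392969_at on 230B was slightly lower in the samples with the higher 230A ratio, at 17911 ± 835 against 19943 ± 602, a fold of 0.898. The sets did not overlap, which was so for 17.3% of all tested probe sets on 230B. Across the 6 samples, Pearson's r with the array's own GAPDH ratio was 0.94 for each of the 3 split probe sets, given as a description of arrays that share their labelling and scaling. It was -0.82 for Cdx2 and 0.79 for Gata6 1375613_at, and from -0.58 to 0.52 for the others.

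**Figure D2:**
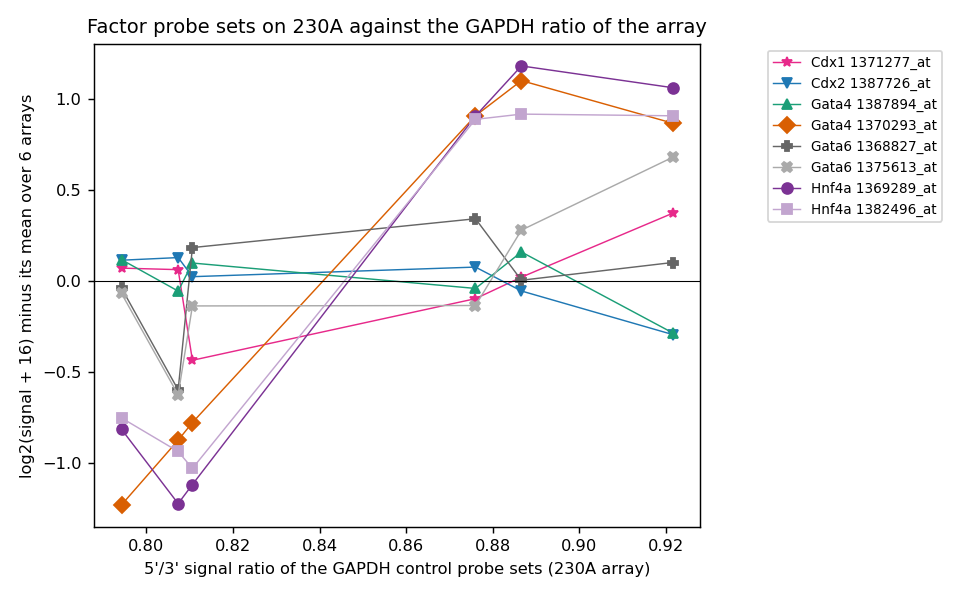
Deviation of log2(signal + 16) from its mean over the 6 arrays for the 8 probe sets on 230A, against the 5′/3′ ratio of the GAPDH control probe sets on the same array; lines join the arrays in order of ratio. Hnf4a 1369289_at, Hnf4a 1382496_at and Gata4 1370293_at step up between ratios of 0.811 and 0.876, and the others do not.

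Of all 9519 tested probe sets on 230A, 202 (2.12%) were higher by over 1 (log2) in the samples with the higher ratio and 15 (0.158%) lower, with a median of 0.0019. Only 26 probe sets had a larger rise than Hnf4a 1369289_at, 34 than Gata4 1370293_at and 40 than Hnf4a 1382496_at. A probe set that names 1 gene had such a rise without overlap in 149 genes. Of the 110 of these with 2 or more tested on 230A, 108 had at least 1 probe set without it, and in 9 the brightest had it. Gata4 was among the 108, and Hnf4a was among the remaining 2 on 230A, with its level probe set on 230B. Further gut transcription factors had the same split. Counting the members with a list of other gut factors, 7 of 47 tested probe sets on both array types were higher by over 1 without overlap, which beside the 3 above were 1 each for Klf5 on both types, Onecut2 1376865_at and Vdr, the vitamin D receptor. Over all tested probe sets the same criterion was met by 1.99% on 230A and 2.39% on 230B. The 7 include the 3 member probe sets that prompted the count, and Klf5 by 2 probe sets. The count is therefore no support for a split particular to gut factors. Klf5, a Krüppel-like factor of crypt cells, had signals of 627, 950 and 2466 in high Fe and 1240, 561 and 275 in low Fe by 1368363_at on 230A. Its brightest probe set on 230B, 1394039_at, ran from 5890 to 8482 with a log2 difference between the ratio sets of -0.11. The part of RNA quality in these splits was not tested, and the block below cannot show it.

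**Figure D3:**
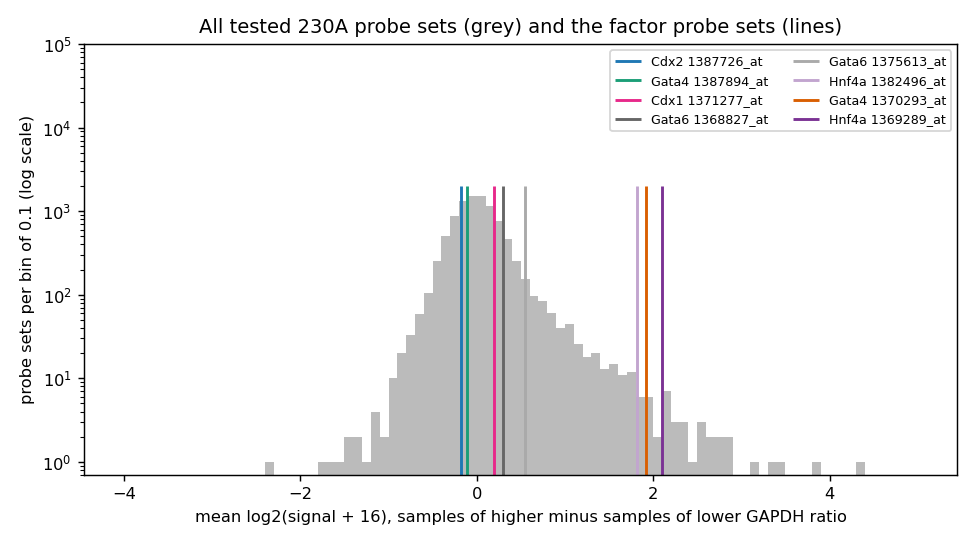
Number of tested 230A probe sets (grey, bins of 0.1, log scale) by the difference in mean log2(signal + 16) between the 3 samples with the higher and the 3 with the lower GAPDH 5′/3′ ratio; coloured lines mark the 8 factor probe sets. Hnf4a 1369289_at, Gata4 1370293_at and Hnf4a 1382496_at lie in the right tail at 2.11, 1.92 and 1.81.

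The iron contrast of the split probe sets depended on this. Without a block the log2 differences were -0.75 ± 0.69 (SE) for Hnf4a 1369289_at, -0.53 ± 0.61 for Hnf4a 1382496_at and -0.80 ± 0.62 for Gata4 1370293_at (limma adjusted p = 0.856, 0.874 and 0.825). Once the 2 sets of samples by GAPDH ratio entered the fit as a block, they were -0.058 ± 0.17, 0.081 ± 0.15 and -0.18 ± 0.18, none past the threshold. Within the 3 samples of higher ratio, with 1 low Fe and 2 high Fe samples and no test, they were -0.22, -0.024 and -0.076, and within the 3 of lower ratio, with 2 low Fe samples and 1 high Fe sample, 0.099, 0.19 and -0.27. The lower ratio was that of 2 of 3 low Fe samples and 1 of 3 high Fe samples, so ratio and iron group were not balanced.

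**Figure D4:**
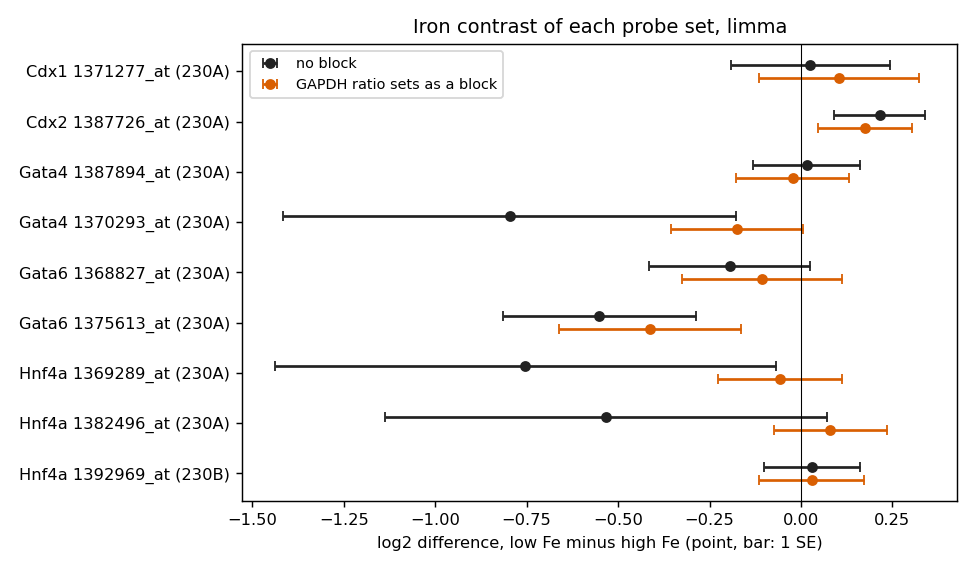
Log2 difference, low Fe minus high Fe, of each probe set from limma, as point and 1 SE, without a block (black) and with the GAPDH ratio sets of the same array type as a block (orange). The 3 split probe sets move from between -0.80 and -0.53 to between -0.18 and 0.081, with SEs of 0.15 to 0.18 in place of 0.61 to 0.69.

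Gata6 had log2 differences below 0 by both of its probe sets, and neither passed. Probe set 1368827_at had signals of 877, 828 and 772 in high Fe and 981, 503 and 749 in low Fe, so that the low Fe samples included both the highest and the lowest value. The means were 826 ± 52.3 and 744 ± 239 (log2 difference -0.20 ± 0.22, limma adjusted p = 0.874), and without low Fe replicate 2 the difference was 0.055. The dimmer 1375613_at had signals of 105, 197.5 and 146 in high Fe and 105, 70.3 and 111 in low Fe. Its log2 difference of -0.55 ± 0.26 had the smallest p of the 9 (unadjusted p = 0.0675, limma adjusted p = 0.759), with a fold of 0.683 and a 95% interval of 0.450 to 1.03. Its mean was 149 ± 46.3 in high Fe and 95.5 ± 22.04 in low Fe, the latter under the filter boundary of 109, so that it passed the filter only through the high Fe samples. The log2 difference ran from -0.76 without high Fe replicate 1 to -0.35 without high Fe replicate 2, was -0.38 without low Fe replicate 2, and was -0.22 after scaling to the hybridization controls. GATA6 is also made in smooth muscle. The summed signal of 12 smooth muscle and mesenchyme markers ran from 4448 to 5305 in high Fe and from 5516 to 6944 in low Fe, without overlap. Mylk, a myosin light chain kinase, made up 54.8% to 61.6% of that sum, and without it the sums overlapped, from 1806 to 2379 in high Fe and from 2125 to 2930 in low Fe. The 4 of these markers on 230B also overlapped, from 919 to 1346 and from 882 to 1444. Their part in the Gata6 values was not tested.

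Cdx2 was the member whose groups did not overlap, which was so for 11.7% of all tested probe sets on 230A. Its signals by 1387726_at were 2649, 2122 and 2508 in high Fe and 2749, 2851 and 2822 in low Fe. Every low Fe sample lay above every high Fe sample, but the gap between 2649 and 2749 was small beside the spread within high Fe. The means were 2426 ± 273 and 2807 ± 52.7, a fold of 1.16 (95% interval 0.955 to 1.41; log2 difference 0.22 ± 0.12, limma adjusted p = 0.780). Without high Fe replicate 2, its lowest sample, the log2 difference was 0.12, and with the GAPDH sets as a block it was 0.17 ± 0.13.

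Cdx1, which is strongest in crypts and towards the colon, was dim. Probe set 1371277_at had signals of 141, 260 and 200.1 in high Fe and 183, 206 and 208 in low Fe, and the high Fe samples spanned all low Fe samples. The means were 200.4 ± 59.2 and 199 ± 13.8, a log2 difference of 0.026 ± 0.22 (95% interval of the fold 0.723 to 1.43; limma adjusted p = 0.986). It was -0.18 without high Fe replicate 1 and 0.22 without high Fe replicate 2.

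Over the 6 samples the factors did not vary as one group, as a description of 6 arrays with no test. Pearson's r was 0.996 between the Hnf4a probe sets on 230A, and 0.97 between each of them and Gata4 1370293_at. Between the Gata4 probe sets it was -0.32, between those of Gata6 0.53, and between the bright Hnf4a probe set and the split ones -0.82 and -0.84. Cdx2 and Cdx1 gave -0.54, and Cdx2 and Gata6 1375613_at -0.91. Among 7031 other named genes on 230A, those most like the brighter Hnf4a probe set there were Mxd1, a Myc antagonist of differentiating cells (r = 0.99), Oga and Cds2. The nearest to Cdx2 were Ucp2, Csnk1d and Nrbp1, to the bright Gata4 probe set Atg101, Trappc14 and Zbtb22, to Gata6 Vps26c, Mafk and Sec16b, and to Cdx1 Prkca, Aldh5a1 and Notch1. The 230B Hnf4a probe set was most like Mdp1, Pkp3 and Cog7. With 6 points, r over 0.95 was reached by 9 to 61 genes for each 230A probe set.

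Other gut transcription factors did not pass either. Of 18 tested on 230A, 0 passed adjusted p 0.05 in limma. An unadjusted p under 0.05 was reached by 1 of the 18, a share near the 6.58% of all genes. The median log2 difference was -0.10 against -0.0018 over all 7032 tested genes. The gene with an unadjusted p under 0.05 was Onecut2, a cut-homeodomain factor. By 1390626_at its signals were 938, 702 and 662 in high Fe and 385, 535 and 259 in low Fe, all lower in low Fe, a log2 difference of -0.98 ± 0.25 (limma adjusted p = 0.526). Its other probe sets gave -1.17 ± 0.40 for 1376865_at, which was also split by the GAPDH ratio (1.33 between the sets), and -0.53 ± 0.45 on 230B. Gata5 and Pdx1 were singled out after their values were seen: Gata5, another intestinal GATA factor, gave -0.077 ± 0.17, and Pdx1, a duodenal factor, 0.23 ± 0.41. Klf6 gave 0.30 ± 0.14, Tcf7l2, a Wnt effector, 0.36 ± 0.22, and the split Klf5 probe set on 230A -0.96 ± 0.58, while the brightest Klf5 probe set on 230B, 1394039_at, gave 0.21 ± 0.16. Of 12 on 230B, each by its brightest probe set, 0 passed in limma and 0 had an unadjusted p under 0.05. Hoxb5, a homeobox gene of axial position, gave -0.74 ± 0.37. Its mean was 262 in high Fe and 151 in low Fe, the latter under the 230B filter boundary of 199.6. It thus passed the filter only through the high Fe samples. Ppargc1a, a coactivator of HNF4A, gave 0.36 ± 0.20. The other Ppargc1a probe set on 230B, 1393743_at, gave 0.56 ± 0.16 (unadjusted p = 0.00823, limma adjusted p = 0.451).

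Of the known targets of HNF4A none passed. On 230A 0 of 15 tested passed and 13 lay below 0, with a median of -0.13 against -0.0018 over all genes. Pck1, the gluconeogenic PEP carboxykinase, had the largest difference, from 5659 ± 1100 to 3094 ± 1435 (-0.95 ± 0.28, limma adjusted p = 0.594). It was the 1 of these 15 with an unadjusted p under 0.05 in limma, against 6.58% of all genes on 230A. Pklr, pyruvate kinase, gave -0.22 ± 0.11, Cdh17, an intestinal cadherin, -0.23 ± 0.18, and Apob, the chylomicron protein, -0.16 ± 0.14. The count depended on single arrays and on the scaling. Without high Fe replicate 1, 15 of 15 lay below 0 with a median of -0.22, and without low Fe replicate 1, 14 of 15 with -0.20. Without high Fe replicate 2, 6 of 15 lay below 0 with a median of 0.039, with the GAPDH sets as a block 9 did, with -0.040, under quantile normalization 11 did, with -0.047, and after scaling to the hybridization controls 1 did, with 0.23 against 0.36 over all genes. Without low Fe replicate 1, 1 of 15 passed adjusted p 0.05 in limma. On 230B 2 of 4 lay below 0. There Acsl5, an acyl-CoA synthetase of fat absorption, was higher in low Fe, at 0.74 ± 0.21 (limma unadjusted p = 0.00643, adjusted p = 0.427). It was the 1 of these 4 with an unadjusted p under 0.05. By its probe set on 230A Acsl5 gave 0.019 ± 0.14.

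**Figure D5:**
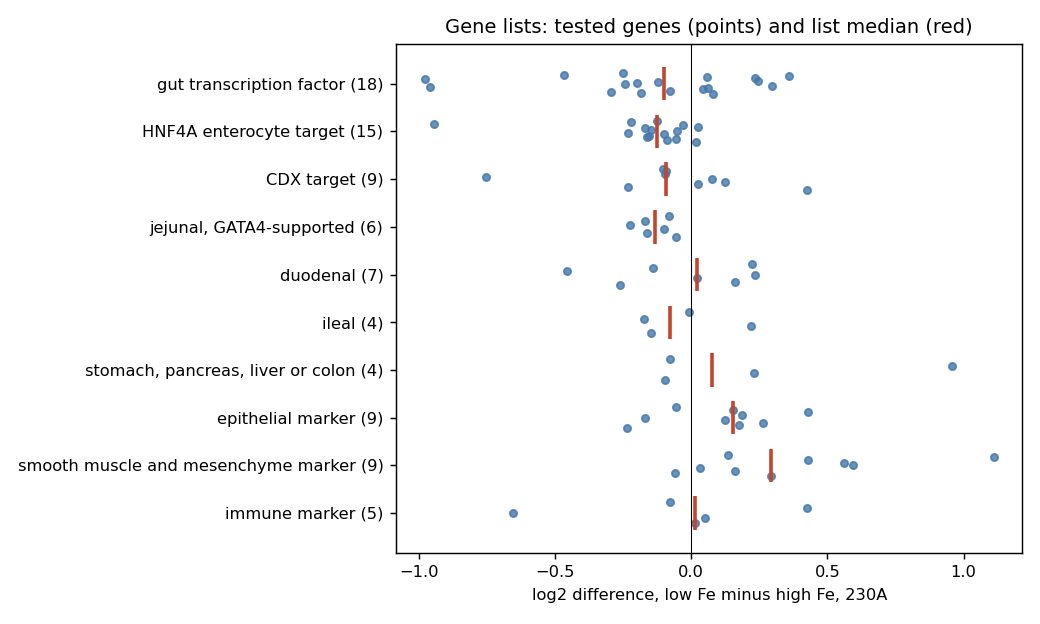
Log2 difference, low Fe minus high Fe, of the tested 230A genes of each list (points, the number in brackets; 1 probe set a gene) and the list's median (red). The HNF4A targets centre at -0.13 and the smooth muscle and mesenchyme markers at 0.29, and no point passed adjusted p 0.05.

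Targets of the CDX factors lay on both sides of 0. Of 9 tested on 230A, 4 lay above 0 and 5 below (median -0.091, but 0.031 without high Fe replicate 2, 0.018 under quantile normalization, 0.028 with the GAPDH sets as a block and 0.28 after scaling to the hybridization controls), and 0 passed or had an unadjusted p under 0.05 in limma. Abcc2, an apical conjugate pump, gave 0.43 ± 0.21, Guca2a, guanylin, 0.13 ± 0.13, and the split Hnf4a probe set, itself on this list, -0.75. On 230B, Cftr, the chloride channel, gave 0.29 ± 0.15 and Vil1, villin, -0.16 ± 0.13, and neither passed.

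Genes that mark gut regions gave no called change. Of 6 tested jejunal genes that depend on GATA4, 6 lay below 0 (median -0.13), and 6 did without high Fe replicate 1 (median -0.34) and without low Fe replicate 1 (-0.29), but 2 did without high Fe replicate 2, 3 with the GAPDH sets as a block, 5 under quantile normalization and 0 after scaling to the hybridization controls. Dnase1 gave -0.23 ± 0.15, Fabp1, the liver-type fatty acid-binding protein, -0.17 ± 0.19, Apoa4 -0.16 ± 0.20 and Apoc3 -0.10 ± 0.15, and none passed in limma. Fabp1, Apoa4, Apoc3 and Apoa1 are also among the HNF4A targets above, by the same probe sets, so the 2 lists are not separate observations. Fabp6 and Slc10a2, the ileal bile acid carriers that GATA4 holds down in jejunum, were dim, from 28.2 to 134 and from 80.9 to 139 over the 6 samples, and were left out of the test. Not all genes listed as ileal were dim, and 4 of the 8 on 230A were tested. Whether the listed genes mark ileum alone was not tested. Muc13 had signals from 10951 to 16557 on 230A, and Slc51a on 230B from 19880 to 29641. Of the other genes listed as ileal, Muc13 gave -0.17 ± 0.17, Gcg 0.22 ± 0.26, Cubn -0.15 ± 0.25 and Tcn2 -0.0067 ± 0.11. On 230B the ileal Osr2 had a log2 difference of 0.68 ± 0.24 (limma adjusted p = 0.451, unadjusted p = 0.0209) and Slc51a, a basolateral bile acid exporter, 0.13 ± 0.17. Of 7 duodenal genes, S100g, a calcium carrier, gave -0.45 ± 0.18, the hormone Cck 0.16 ± 0.13, the iron exporter Slc40a1 0.22 ± 0.21 and the hormone Sct -0.14 ± 0.13, and 0 passed. S100g was the 1 of the 7 with an unadjusted p under 0.05 in limma, against 6.58% of all genes on 230A. Of 17 genes of stomach, pancreas, liver or colon on 230A, 13 were too dim to test. The tested ones were Cela1 (0.96 ± 0.59), Car4 (0.23 ± 0.23), Aqp8 (-0.097 ± 0.17) and Tff1 (-0.078 ± 0.16), and Cela1, pancreatic elastase, had a difference of -1.62 between the samples of higher and lower GAPDH ratio.

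Epithelial markers were bright in both groups. The summed signal of 9 epithelial markers ran from 66171 to 86764 in high Fe and from 73423 to 80849 in low Fe, with overlap, and of 9 tested 6 lay above 0 (median 0.15). An unadjusted p under 0.05 in limma was found for 2 of these 9, against 6.58% of all genes. These were Krt19 and Cldn3, both higher in low Fe. Krt19, a keratin, gave 0.43 ± 0.17, Cldn3, a tight junction claudin, 0.27 ± 0.11, Cdh1, E-cadherin, 0.18 ± 0.11, and Alpi, intestinal alkaline phosphatase, -0.23 ± 0.18. The smooth muscle and mesenchyme list had 8 of 9 tested above 0 (median 0.29, 0.21 with the GAPDH sets as a block and 0.49 without low Fe replicate 1). An unadjusted p under 0.05 in limma was found for 3 of the 9, Smtn, Mylk and Des, against 6.58% of all genes. Smtn gave 1.11 ± 0.30, Mylk 0.43 ± 0.13, Des 0.59 ± 0.22 and Acta2 0.29 ± 0.19. Smtn (79.4) and Des (96.6) had high Fe means under the filter boundary of 109. Both passed the filter only through the low Fe samples, so their place in this count came from the group where they were high. On 230B Mylk gave 0.085 ± 0.42. Of 5 tested immune markers, 3 lay above 0, with Cd8a at -0.66 ± 0.19, Lyz2 at 0.43 ± 0.25, Cd74 at 0.052 ± 0.13 and Ptprc at -0.077 ± 0.21. Cd8a was the 1 of the 5 with an unadjusted p under 0.05 in limma, against 6.58% of all genes. On 230B Cd8a gave -0.81 ± 0.44. The summed signal of 8 immune markers overlapped, from 8832 to 9822 in high Fe and from 9201 to 10569 in low Fe. None of these markers passed in limma (1 of the 9 smooth muscle and mesenchyme markers did after scaling to the hybridization controls), and their part in the factors' values was not tested. In such bulk scrapings, fewer cells of a type and less RNA per cell cannot be told apart.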

How the data were processed

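The authors deposited 1 linear signal intensity per probe set and array. Which software made it could not be learned from the labels or files. On every array the mean was about 500 once 2% of probe sets were trimmed from each end, so a shift common to most genes is removed by the scaling, and levels were kept apart by array type. After 57 controls a type and the dimmest 40% of probe sets by mean signal were dropped (boundaries at signals of 109 and 199.6), the contrast of low Fe minus high Fe was fitted for each type with limma 3.58.1 under R 4.3.3 on log2(signal + 16), by lmFit and eBayes with a trend, adjusting by Benjamini-Hochberg over every probe set of the type that was tested. Changes of dim genes are understated on this scale. Symbols came from the platform annotation: on 230A it gave 1 symbol to 12783 probe sets, several to 312 and none to 2771, and on 230B to 7564, 100 and 7612.

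The members and gene lists were chosen with earlier results of these data known. Lists use the brightest probe set of a gene and are described by counts and medians, with up to 4 genes of smallest p named. For each probe set the 3 named genes of highest Pearson r over the 6 arrays are given, and Acsl5 on 230A, Gata5, Pdx1, Klf5, Vdr, the further Onecut2, Ppargc1a and Mylk probe sets, Fabp6 and Slc10a2 were singled out after their values were seen. Alternatives were other pseudocounts, filters, scalings and variance models, blocks for the replicate number and the GAPDH ratio (split at its widest gap), and each array left out. Same-numbered arrays had deviations that correlated from -0.37 to -0.10, which gave no sign of pairing. The main fit on 230A was first tested on simulated data, whereas the 230B fit and the alternatives were not.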

Additional observations from a re-analysis of the deposited data

How the results depend on the processing

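Every alternative left 0 of the 9 factor probe sets past the threshold, with a smallest limma adjusted p of 0.321. Of 133 values of single probe sets under the alternatives, 120 kept the direction of the reported value. The bright Gata4 probe set turned to -0.012 under quantile normalization and -0.023 with the GAPDH sets as a block, Hnf4a on 230B to -0.15 under quantile normalization and to -0.025 with the 230A GAPDH sets as a block (added after the data were seen), Hnf4a 1382496_at to 0.081 with the GAPDH sets as a block, and Gata6 1368827_at to 0.17 when arrays were scaled by their hybridization controls, where the median over all 230A probe sets was 0.34. The cause was not tested. Without 1 array, the bright Gata4 probe set ran from -0.12 to 0.10, Cdx1 from -0.18 to 0.22, Gata6 1368827_at from -0.42 to 0.055, Hnf4a on 230B from -0.024 to 0.093, Hnf4a 1369289_at from -1.50 to -0.33, Hnf4a 1382496_at from -1.18 to -0.20, Gata4 1370293_at from -1.45 to -0.38 and Gata6 1375613_at from -0.76 to -0.35. Cdx2 ran from 0.12 to 0.28. Cdx2 and the last 4 named before it kept their direction but moved by over 1.5 times without 1 array. The others changed direction without at least 1 of the arrays. The count of all probe sets past the threshold on 230A, 9, became 33 when scaled by the hybridization controls (24 of them higher and 9 lower in low Fe), 4 with the replicate block, 15 at adjusted p 0.1, and 5 to 21 without 1 array (lowest when low Fe replicate 2 was dropped, highest when low Fe replicate 1 was). On 230B it was 0 and became 5 under that scaling. With the lowest 60% left out, Cdx1 and the dimmer Gata4 and Gata6 probe sets were not tested. The replicate block changed no call of the factors. The medians of the lists were recomputed under settings chosen after seeing the data, as was the sum of smooth muscle markers without Mylk.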
